A study of Mus musculus with 6 samples.

Results

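In RNA from mouse brain cells captured with the O4 antibody, 10 genes were followed that neutrophils switch on at successive steps of their development in the bone marrow. They were chosen by what their products are known to be, and the choice was made with values of these samples already known, including the height of 1 control sample. They comprise 4 primary granule genes (Mpo, Elane, Prtn3 and Ctsg), 4 secondary granule genes (Ngp, Camp, Ltf and Mmp8) and 2 cytosolic genes (S100a8 and S100a9), so 10 of the 55298 gene identifiers in the data. Each symbol had 1 identifier, and all 10 genes passed the filter on low values (a mean rlog value of at least 3), as did 18161 genes in all. Their levels and differences are therefore given as a description, with no test.

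The EAE samples came from mice immunised with MOG 35-55 peptide, which brings on experimental autoimmune encephalomyelitis (EAE), an inflammatory disease of brain and spinal cord. The OVA samples came from mice given ovalbumin. All mice carried the c56Bl/6j background and were killed when disease in the model was at its maximum, and the sources used here give neither age nor sex. Each EAE sample pooled RNA of 2 mice, OVA replicate 2 also pooled 2 mice, and OVA replicates 1 and 3 held 1 mouse each. OVA replicate 3 is the library labelled OVA300.

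A neutrophil precursor fills its granules in a fixed order. Primary (azurophil) granules form first, at the promyelocyte step, and hold myeloperoxidase and serine proteases. Secondary (specific) granules form next, at the myelocyte and metamyelocyte steps, and hold lactoferrin, cathelicidin and collagenase. Transcripts of the primary granule genes are largely lost before a neutrophil enters the blood, those of the secondary granule genes decline as it matures, and those of S100a8 and S100a9 stay abundant in blood neutrophils and are also made by monocytes. A brain preparation can hold such transcripts from blood left in vessels, from infiltrating cells or from marrow cells of the skull.

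Values are regularised logarithms of read counts (rlog, log2 scale), on which 1 unit is 2-fold and low values are drawn towards the gene's own mean. The depth of the samples is unknown, because no counts were used. Markers of oligodendrocytes, the labelled cell type, were present in all samples. The summed level of 14 such markers was 20.35 to 20.50 in the EAE samples and 19.96 to 20.40 in the OVA samples, lowest in OVA replicate 3. None of the marker lists used below had a gene at 0 in all samples. The number of cells of a type and the RNA per cell cannot be told apart in such bulk samples.

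OVA replicate 3 stood apart for all 10 genes. All 10 members were highest in that sample, as were 25.5% of all tested genes, and all 10 exceeded the mean of OVA replicates 1 and 2 by at least 2-fold, as did 1.24% of all tested genes (0.0441% lay at least 2-fold lower). The median excess was 3.25 over the 10 members and 0.01 over all tested genes. With that sample, EAE minus OVA was below 0 for all 10 members (median -1.13, and -0.0024 over all tested genes). Without it, EAE minus OVA was below 0 for 4 members (median 0.07).

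**Figure D1:**
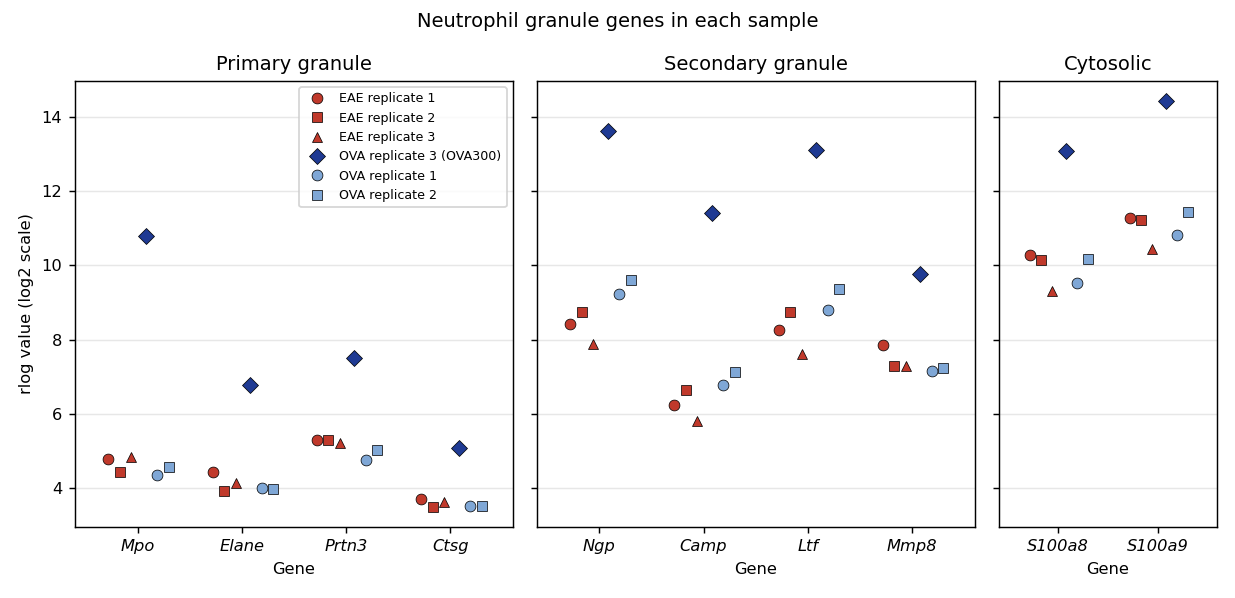
rlog value (log2 scale) of each of the 10 genes in each sample, with EAE samples in red, OVA replicate 3 as dark blue diamonds and the other OVA samples in light blue. OVA replicate 3 is highest for all 10 genes, and Ngp, Camp and Ltf lie lower in the 3 EAE samples than in any OVA sample.

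Primary granule genes stood between 3.50 and 5.30 in 5 samples, and each was higher in OVA replicate 3. Mpo (ENSMUSG00000009350.13, chromosome 11, 87793581 to 87804413) encodes myeloperoxidase, which makes hypochlorous acid from hydrogen peroxide. It was at 4.78, 4.44 and 4.85 in EAE replicates 1 to 3, and at 10.79 in OVA replicate 3 against 4.36 and 4.57 in OVA replicates 1 and 2. The first 3 values overlap the last 2, EAE minus OVA was -1.88 with all samples and 0.22 without OVA replicate 3, and OVA replicate 3 lies 6.32 above the mean of OVA replicates 1 and 2, or 79.99-fold. That was the largest such difference among the 18161 genes tested. An antisense gene inside the Mpo locus, Gm11505, stood between -1.97 and -1.96 in all samples.

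Elane (ENSMUSG00000020125.7, chromosome 10, 79886247 to 79888215) encodes neutrophil elastase. It was at 4.42, 3.91 and 4.14 in EAE replicates 1 to 3, and at 6.78 in OVA replicate 3 against 3.99 and 3.97 in OVA replicates 1 and 2. Its excess in OVA replicate 3 was 2.80, or 6.98-fold, and EAE minus OVA was -0.76 with all samples and 0.18 without that sample. EAE replicate 2 lay below both other OVA samples while EAE replicates 1 and 3 lay above them. Its neighbour Prtn3 (ENSMUSG00000057729.12, chromosome 10, 79874476 to 79883174) encodes proteinase 3. Prtn3 was at 5.30, 5.28 and 5.21 in EAE replicates 1 to 3, and at 7.51 in OVA replicate 3 against 4.76 and 5.02 in OVA replicates 1 and 2. All 3 EAE samples lay above OVA replicates 1 and 2, by 0.37 on average, and 2.25 on average below OVA replicate 3, so EAE minus OVA was -0.50 with all samples. Plppr3, a gene on the opposite strand that overlaps the annotated 5′ end of Prtn3, was at 8.32, 8.40 and 8.21 in EAE replicates 1 to 3, and at 7.94 in OVA replicate 3 against 7.95 and 7.60 in OVA replicates 1 and 2. Both genes thus lay higher in all EAE samples than in OVA replicates 1 and 2, and the high value in OVA replicate 3 was seen in Prtn3 alone of the pair. The sources used here do not say whether reads were counted by strand.

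Ctsg (ENSMUSG00000040314.2, chromosome 14, 56099881 to 56102574) encodes cathepsin G, the remaining protease of these granules. It was the lowest of the 10 members, at 3.70, 3.50 and 3.61 in EAE replicates 1 to 3, and at 5.07 in OVA replicate 3 against 3.51 and 3.53 in OVA replicates 1 and 2. EAE minus OVA was -0.43 with all samples and 0.0897 without OVA replicate 3, whose excess of 1.56 was the smallest among the members. Because the rlog draws low values together most strongly, the smaller differences of Ctsg, Elane and Prtn3 cannot be read as smaller changes than those of more abundant genes. Over the 4 primary granule genes EAE minus OVA averaged -0.89 with all samples and 0.22 without OVA replicate 3.

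The promoters of the 4 primary granule genes are shown because they share a motif. All 4 RefSeq windows (GRCm38.p6, 250 bases before to 50 after the start) hold 1 match to AGGAAGT, the core that PU.1 and other ETS factors bind, searched on both strands, and 9.35% of 32851 windows of all genes hold one. The motif was chosen after the sequences had been seen, and a match is no evidence of binding. The stretches below hold no annotated exon bases of the gene, run 5′ to 3′ on the gene's strand, and carry the motif in capitals. That of Prtn3 ends at the first exon of 1 annotated transcript and lies in an intron of a longer one.
Mpo, chr11:87793534-87793580, plus strand: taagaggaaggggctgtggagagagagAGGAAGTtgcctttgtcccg
Elane, chr10:79886167-79886246, plus strand: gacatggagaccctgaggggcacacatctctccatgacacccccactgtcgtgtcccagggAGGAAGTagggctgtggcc
Prtn3, chr10:79879534-79879613, plus strand: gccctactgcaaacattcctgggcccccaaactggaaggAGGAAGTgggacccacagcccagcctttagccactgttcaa
Ctsg, chr14:56102738-56102817, minus strand: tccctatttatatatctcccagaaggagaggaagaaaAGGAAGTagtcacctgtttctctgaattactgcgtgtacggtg

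Among the secondary granule genes, Ngp, Camp and Ltf were the members in which the EAE samples also lay below OVA replicates 1 and 2. Ngp (ENSMUSG00000032484.8, chromosome 9, 110419747 to 110423012) encodes neutrophilic granule protein, a relative of the cathelicidins. It was at 8.42, 8.73 and 7.88 in EAE replicates 1 to 3, and at 13.63 in OVA replicate 3 against 9.23 and 9.60 in OVA replicates 1 and 2. EAE minus OVA was -2.47 with all samples and -1.07 without OVA replicate 3, and OVA replicate 3 exceeded the other OVA samples 18.5-fold. Camp (ENSMUSG00000038357.10, chromosome 9, 109847379 to 109849617) encodes the precursor of the antimicrobial peptide cathelicidin. It was at 6.25, 6.64 and 5.81 in EAE replicates 1 to 3, and at 11.42 in OVA replicate 3 against 6.78 and 7.14 in OVA replicates 1 and 2. Its differences were -2.21 with all samples and -0.73 without OVA replicate 3, and OVA replicate 3 lay 4.46 above the other OVA samples.

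Ltf (ENSMUSG00000032496.7, chromosome 9, 111019271 to 111042767) encodes lactoferrin, which binds iron and so keeps it from bacteria. It was at 8.25, 8.73 and 7.60 in EAE replicates 1 to 3, and at 13.10 in OVA replicate 3 against 8.79 and 9.37 in OVA replicates 1 and 2. EAE minus OVA was -2.23 with all samples and -0.89 without OVA replicate 3, and EAE replicate 2 lay just below OVA replicate 1. Ranked by excess in OVA replicate 3 among all tested genes, Camp, Ngp and Ltf took ranks 2, 3 and 4, after Mpo. For 3 of the 10 members the EAE samples lay wholly below the OVA samples, against 10.8% of all tested genes, and for 0 members wholly above, against 12.1%.

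Mmp8 (ENSMUSG00000005800.3, chromosome 9, 7558456 to 7568485), the neutrophil collagenase, did not share that pattern. It was at 7.86, 7.30 and 7.28 in EAE replicates 1 to 3, and at 9.78 in OVA replicate 3 against 7.15 and 7.23 in OVA replicates 1 and 2. The EAE samples lay above OVA replicates 1 and 2 by 0.29 on average and below OVA replicate 3 by 2.30 on average, so EAE minus OVA was -0.57 with all samples. Set against OVA replicates 1 and 2 alone, the EAE samples were wholly lower for 3 members (Ngp, Camp and Ltf), against 20.0% of tested genes, and wholly higher for 2 (Prtn3 and Mmp8), against 21.4%. A mean over the 4 secondary granule genes therefore joins unlike patterns. EAE minus OVA averaged -1.87 over the 4, and -2.30 over Ngp, Camp and Ltf.

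Secondary granule promoters are shown for the other motif searched, TTGCNNAA on both strands, which C/EBP factors bind. C/EBP epsilon, encoded by Cebpe, is required in mice for secondary granules to form. The windows of Ngp (2 matches), Ltf (1) and Mmp8 (1) hold it and that of Camp does not, and S100a9 is the only other member with a match. Of all windows 10.8% hold one. AGGAAGT was present in the windows of Mmp8 and S100a8 and in none of those of Ngp, Camp, Ltf and S100a9. In the stretches below 1 match outside annotated exons is in capitals, which in Ltf reads on the opposite strand.
Ngp, chr9:110419634-110419713, plus strand: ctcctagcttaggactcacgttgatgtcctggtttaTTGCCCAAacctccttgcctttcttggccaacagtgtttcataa
Ltf, chr9:111019181-111019260, plus strand: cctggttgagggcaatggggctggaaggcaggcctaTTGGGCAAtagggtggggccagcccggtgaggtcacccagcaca
Mmp8, chr9:7558349-7558428, plus strand: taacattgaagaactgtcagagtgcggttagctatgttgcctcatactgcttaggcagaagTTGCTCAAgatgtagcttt

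The cytosolic genes encode the subunits of calprotectin, a calcium- and zinc-binding alarmin that fills the neutrophil cytosol. S100a8 (ENSMUSG00000056054.9, chromosome 3, 90668978 to 90670035) was at 10.29, 10.14 and 9.30 in EAE replicates 1 to 3, and at 13.07 in OVA replicate 3 against 9.54 and 10.18 in OVA replicates 1 and 2. S100a9 (ENSMUSG00000056071.12, chromosome 3, 90692632 to 90695721) was at 11.29, 11.22 and 10.44 in EAE replicates 1 to 3, and at 14.42 in OVA replicate 3 against 10.82 and 11.44 in OVA replicates 1 and 2. For both genes the EAE samples and OVA replicates 1 and 2 overlapped, with EAE replicate 3 the lowest of the 6. EAE minus OVA was -1.02 for S100a8 and -1.24 for S100a9 with all samples, and 0.05 and -0.15 without OVA replicate 3. OVA replicate 3 exceeded the other OVA samples 9.26-fold and 9.75-fold.

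**Figure D2:**
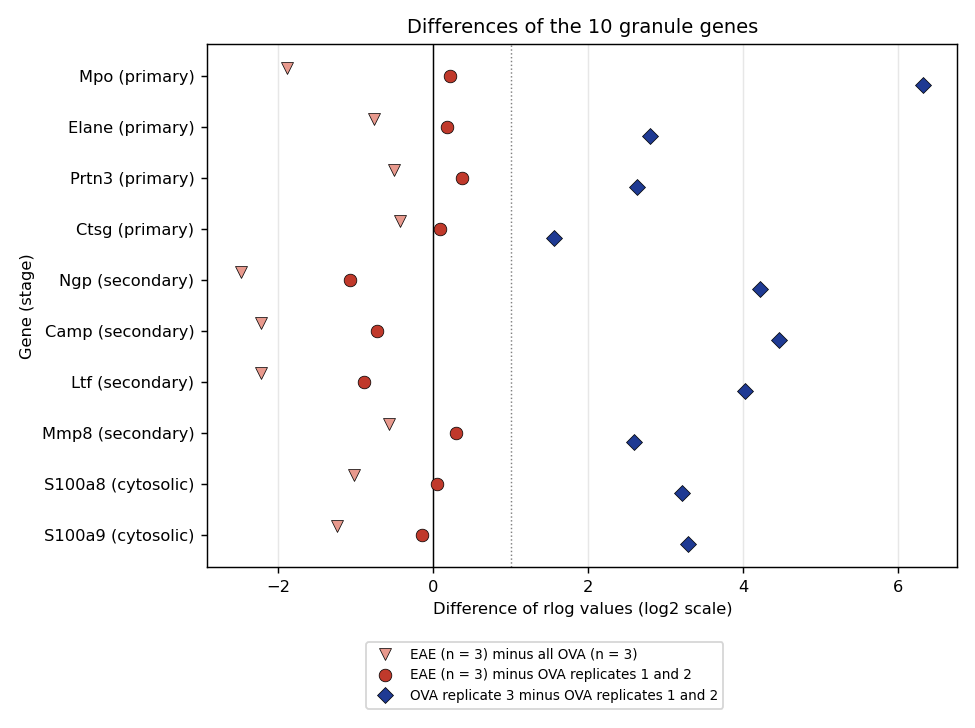
Differences of rlog values (log2 scale) of each gene, with EAE minus all OVA samples as light triangles, EAE minus OVA replicates 1 and 2 as red circles and OVA replicate 3 minus OVA replicates 1 and 2 as blue diamonds; the dotted line marks 2-fold. All diamonds lie right of that line, from 1.56 for Ctsg to 6.32 for Mpo, and without OVA replicate 3 the EAE difference is below -0.5 for Ngp, Camp and Ltf alone.

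Set against the mean of OVA replicates 1 and 2, the 3 stages differed in order between the samples. In OVA replicate 3 the primary, secondary and cytosolic members lay higher by 3.33, 3.82 and 3.25 on average. In EAE replicates 1 to 3 the primary members differed by 0.34, 0.07 and 0.24, the secondary members by -0.47, -0.31 and -1.02, and the cytosolic members by 0.29, 0.19 and -0.62. The secondary mean was thus the lowest of the 3 in every EAE sample, although Mmp8 lay above OVA replicates 1 and 2 in each. In OVA replicate 3 the secondary mean was the highest, although Mpo exceeded every secondary member there and rlog differences of the low primary genes are drawn in. Relative to the cytosolic members the secondary members lay at -0.76, -0.50 and -0.39 in EAE replicates 1 to 3, and at 0.57 in OVA replicate 3 against 0.14 and -0.14 in OVA replicates 1 and 2. EAE replicate 3 was the lowest EAE sample for 7 of the 10 members, as it was for 34.2% of all tested genes.

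**Figure D3:**
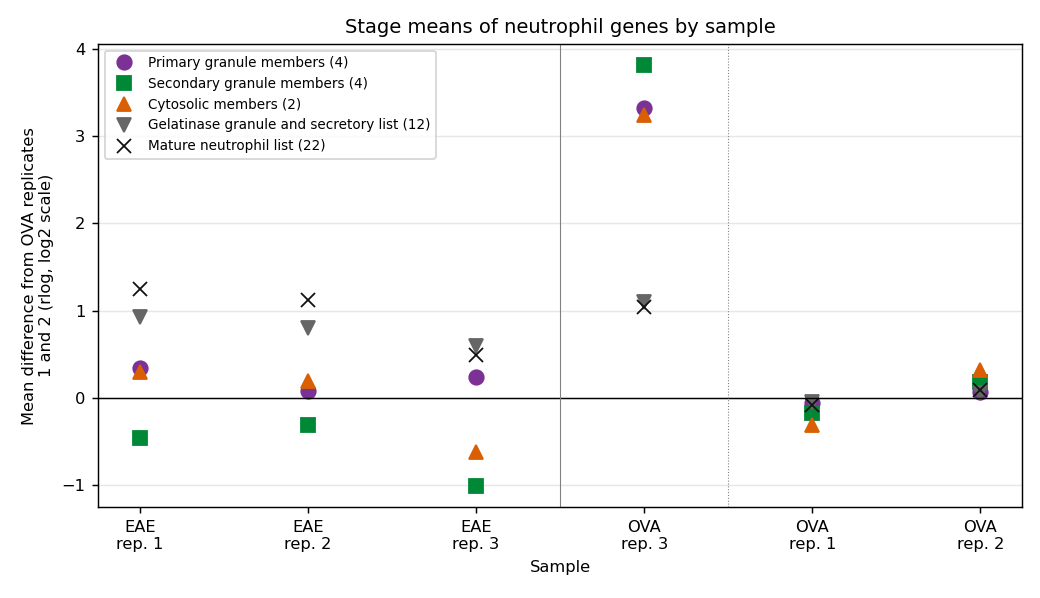
Mean difference of each stage from the mean of OVA replicates 1 and 2 (rlog, log2 scale) in each sample, for the 3 member stages and the gelatinase granule and mature neutrophil lists, with the number of genes in brackets. In OVA replicate 3 the member stages lie at 3.25 to 3.82 and the lists at 1.10 and 1.04, whereas in the EAE samples the secondary members are lowest and the mature neutrophil list reaches 1.24.

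Other genes of the neutrophil programme came from 6 lists of granule, surface, regulator and ligand genes. Of 79 distinct genes tested, 38 were highest in OVA replicate 3, against 25.5% of all tested genes. At least 2-fold higher there than in the other OVA samples were 25, against 1.24% of all tested genes. The median excess of the 79 was 0.76. Limma called 11 higher (13.9%) and 0 lower in EAE, with 7 lower at an unadjusted p under 0.05, against 1.72% higher and 0.666% lower over all tested genes. Without OVA replicate 3 it called 30 higher (38.0%) and 0 lower, with 6 lower at an unadjusted p under 0.05, against 4.68% and 1.91%. The 11 became 15 without EAE replicate 3, 2 without EAE replicate 1 or OVA replicate 1, and 1 without EAE replicate 2 or OVA replicate 2. The median EAE minus OVA difference of the 79 was 0.25, and 0.43 without OVA replicate 3. All 11 also passed without OVA replicate 3, and the folds without it are given beside those with all samples. Many of the 79 genes are also active in monocytes, macrophages or microglia, and 4 of the 79 (Lyz2, Cybb, Chil3 and Ifitm6) are in the monocyte list as well.

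Among 9 other primary granule and promyelocyte genes 1 passed the test. Ctsc, the protease that activates the granule serine proteases, rose 1.80-fold, and 1.97-fold without OVA replicate 3 (12.22 ± 0.22 in EAE and 11.37 ± 0.24 in OVA, SD, n = 3 each; limma adjusted p = 0.0326), and lost the call when any of 4 samples was left out (adjusted p of at most 0.143). Ms4a3, a marker of granulocyte and monocyte progenitors, lay between 3.21 and 3.23 in 5 samples and at 4.54 in OVA replicate 3. Among 17 other secondary granule genes 1 rose, Cyba, a subunit of the NADPH oxidase, at 2.40-fold, and 2.92-fold without OVA replicate 3 (limma adjusted p = 0.0495). Of the 6 fits that each left out 1 sample, it passed in the one without OVA replicate 3 alone. Lcn2, the iron-chelator binding lipocalin that reactive astrocytes also make, was at 11.37, 11.78 and 10.35 in EAE replicates 1 to 3, and at 12.93 in OVA replicate 3 against 11.93 and 12.49 in OVA replicates 1 and 2. Like Ngp, Camp and Ltf it lay lower in all EAE samples than in any OVA sample, although its difference of -1.28, or -1.04 without OVA replicate 3, did not pass the test. Most of the list went the other way. In EAE 11 of the 17 genes lay above the mean of OVA replicates 1 and 2 (median 0.07), among them Cybb (2.34), Chil3 (1.93) and Hp (1.37). Without OVA replicate 3 limma called 5 of the 17 higher (29.4%) and 0 lower, against 4.68% and 1.91% of all tested genes. Chil3, Cd177, a surface receptor of secondary granules, and Fcnb, a ficolin, were 12.1-fold, 8.51-fold and 6.51-fold higher in OVA replicate 3 than in the other OVA samples.

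Of 12 genes of gelatinase granules and secretory vesicles, which form last, 2 rose in EAE. Hpse, heparanase, rose 3.05-fold, and 3.65-fold without OVA replicate 3 (8.40 ± 0.06 in EAE and 6.80 ± 0.45 in OVA, SD, n = 3 each; limma adjusted p = 0.0152), with a call in 2 of the 6 fits that left out a sample. Slc11a1, a metal transporter of phagosomes, rose 1.98-fold, and 2.03-fold without OVA replicate 3 (limma adjusted p = 0.00536) and kept its call whichever sample was left out (adjusted p of at most 0.0447). Mmp9, the gelatinase itself, was at 9.22, 9.21 and 8.75 in EAE replicates 1 to 3, and at 10.73 in OVA replicate 3 against 8.34 and 8.68 in OVA replicates 1 and 2. All 3 EAE samples lay between OVA replicate 3 and the other OVA samples.

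Of 22 tested genes of mature and activated neutrophils 5 rose in EAE (22.7%), and 8 (36.4%) without OVA replicate 3. For the gelatinase list the shares were 16.7% and 58.3%. The 5 were Acod1, which makes itaconate (5.62-fold, limma adjusted p = 0.0215), the hydroxycarboxylic acid receptor Hcar2 (5.04-fold, 0.0201), the inhibitory receptor Cd300lf (3.86-fold, 0.0382), the chemerin receptor relative Ccrl2 (3.16-fold, 0.0115) and the cytokine Il1b (2.77-fold, 0.0438). Without OVA replicate 3 the folds were 6.28 for Acod1, 5.75 for Hcar2, 4.61 for Cd300lf, 3.50 for Ccrl2 and 3.16 for Il1b. All 5 lost the call without at least 2 of the samples, with adjusted p of at most 0.17. Macrophages and microglia also express these genes. Ly6g and Retnlg, whose expression is more restricted to neutrophils, did not pass the test. They are named for their large excess in OVA replicate 3 and do not stand for the whole list. In EAE 19 of the 22 genes lay above the mean of OVA replicates 1 and 2, whereas Ly6g (-0.12), Ifitm6 (-0.20) and Retnlg (-0.38) lay below it. The median excess in OVA replicate 3 was 0.77 over the list, and 8 of the 22 were at least 2-fold higher there, against 1.24% of all tested genes. The excess was 2.06 for Ly6g, 2.36 for Ifitm6, 2.43 for Retnlg and 2.61 for Wfdc21. It was 0.09 for Csf3r, 0.27 for Stfa2l1, 0.28 for Asprv1 and 0.42 for Mrgpra2b. Ly6g, the antigen that defines mouse neutrophils, was at 4.21, 4.47 and 4.18 in EAE replicates 1 to 3, and at 6.47 in OVA replicate 3 against 4.52 and 4.30 in OVA replicates 1 and 2. Retnlg, a resistin-like protein of blood neutrophils, was at 7.29, 7.19 and 7.37 in EAE replicates 1 to 3, and at 10.09 in OVA replicate 3 against 7.35 and 7.99 in OVA replicates 1 and 2.

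Of 9 regulators of granulocyte development, Cebpb, the C/EBP factor of emergency granulopoiesis, rose 2.25-fold, and 2.37-fold without OVA replicate 3 (limma adjusted p = 0.031). Cebpe stood between 3.53 and 3.66 in 5 samples and at 5.02 in OVA replicate 3. Myb, a factor of dividing progenitors, was at 8.65, 8.79 and 8.63 in EAE replicates 1 to 3, and at 9.58 in OVA replicate 3 against 8.19 and 8.27 in OVA replicates 1 and 2. Over the 9 regulators the median excess in OVA replicate 3 was 0.28, and 2 of them lay lower there than in the other OVA samples. Myb is also in a list of haematopoietic progenitor genes, of which 9 were tested. There the median excess was 0.37, Myb alone was at least 2-fold higher, and Kit (-0.22) and Meis1 (-0.48) lay lower. Among 13 tested ligands and receptors that direct neutrophils, Il17a, a T cell cytokine that drives granulopoiesis, rose 1.26-fold with and without OVA replicate 3 (limma adjusted p = 0.0207), at the low level of 3.69 ± 0.06 in EAE and 3.35 ± 0.00 in OVA (SD, n = 3 each). Cxcr2, the receptor that brings neutrophils into the blood, was at 8.73, 9.04 and 7.89 in EAE replicates 1 to 3, and at 8.93 in OVA replicate 3 against 7.88 and 8.27 in OVA replicates 1 and 2. Its excess in OVA replicate 3 was 0.86, near the medians of the mature neutrophil list (0.77) and of the other primary granule list (0.90). Cebpb and Il17a each lost the call without 4 of the 6 samples (adjusted p of at most 0.127 and 0.104).

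The genes most like the members were sought by the root-mean-square distance between centred values over the 6 samples, leaving out predicted genes. Nearest to the mean of the primary granule members was Slc4a1, the anion exchanger of red cells, at a distance of 0.17, followed by Fcnb (0.22), the antibacterial protein Wfdc21 (0.27) and the transporter Abca13 (0.33). Nearest to the secondary granule members were Cd177 (0.34), the integrin subunit Itgb2l (0.38) and Slc4a1 (0.45), and the same 3 genes were nearest to the cytosolic members (0.22, 0.26 and 0.35). Rag1, a recombinase of lymphocyte precursors, and Prg2, the major basic protein of eosinophils, were among the 12 nearest to the primary members (0.38 and 0.41) and to the secondary members (0.81 and 0.68). With 6 samples such likeness rests mainly on OVA replicate 3.

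Markers of other cells were also high in OVA replicate 3, in which 25.5% of all tested genes had their highest value. All 10 tested B cell precursor genes had their highest value there, with a median excess of 1.38 over OVA replicates 1 and 2, and Rag1 was at 7.89 against 5.55 and 5.83. Their summed level was 10.12 to 10.36 in the EAE samples, and 11.59 in OVA replicate 3 against 10.34 and 10.51 in OVA replicates 1 and 2. The most abundant gene of that sum was Ebf1, at 10.36 in OVA replicate 3 against 9.41 and 9.72. Of 12 tested erythroid genes 11 were highest in OVA replicate 3 (median excess 1.29), with Slc4a1 at 8.46 against 5.13 and 5.01. The summed erythroid level was 15.22 to 15.62 in the EAE samples, and 15.53 in OVA replicate 3 against 15.19 and 15.44 in OVA replicates 1 and 2, and its most abundant gene was Car2, which oligodendrocytes also express.

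All 12 cell division genes were highest in OVA replicate 3 (median excess 1.14), against 25.5% of all tested genes. Among them Mki67 was 6.27-fold higher there than in the other OVA samples. Their summed level was 11.04 to 11.12 in the EAE samples, and 12.18 in OVA replicate 3 against 10.29 and 10.36 in OVA replicates 1 and 2. The 14 monocyte and macrophage markers were summed to 15.92 to 16.43 in the EAE samples, and to 15.79 in OVA replicate 3 against 14.81 and 14.99 in OVA replicates 1 and 2. In OVA replicates 1 and 2 the most abundant gene of that sum was Fn1, at 14.10 and 14.35. Ly6c2, the antigen of inflammatory monocytes, was at 9.35, 9.37 and 8.74 in EAE replicates 1 to 3, and at 9.39 in OVA replicate 3 against 6.63 and 6.49 in OVA replicates 1 and 2. T cell markers lay close to those of the other OVA samples in OVA replicate 3, with a median difference of 0.14 over 12 genes and 0.60 for the EAE samples, and oligodendrocyte markers lay lower there, with a median of -0.48 over 14 genes. All 10 endothelial and mural genes and all 7 tested megakaryocyte and platelet genes were highest in OVA replicate 3 as well, with a median excess of 0.63 and 0.43. The part of these cell types in the values of the granule genes was not tested.

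**Figure D4:**
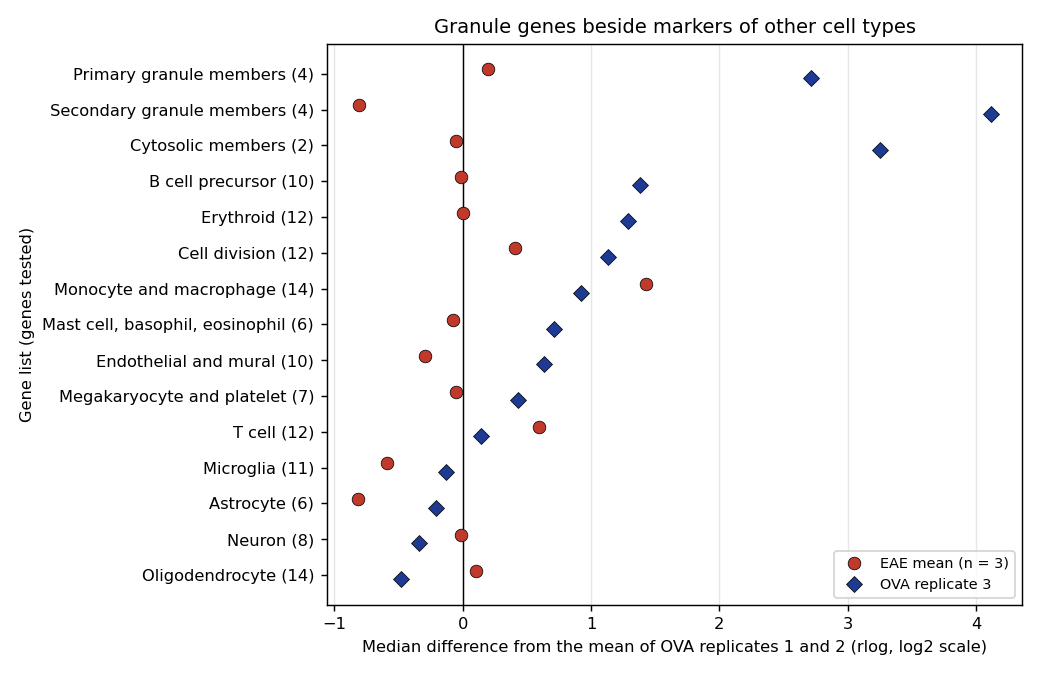
Median difference from the mean of OVA replicates 1 and 2 (rlog, log2 scale) for the member stages and for marker lists of other cell types, with EAE means as red circles and OVA replicate 3 as blue diamonds, and the number of genes tested in brackets. In OVA replicate 3 the member stages, chosen with their height there known, lie at 2.71 to 4.12. B cell precursor genes lie at 1.38 in that sample, erythroid genes at 1.29 and cell division genes at 1.14. The 38 other granule genes, not drawn, had a median excess of 0.90 in OVA replicate 3. The EAE means are highest for monocyte and macrophage markers (1.43).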

How the data were processed

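The authors deposited regularised logarithms (rlog) of read counts, a log2 unit, with a column for each of the 6 samples. The kit was TruSeq Stranded mRNA, per the labels' protocols. Tools listed in the submitters' processing notes, without role or order, are STAR 2.6.1c, Subread 1.6.1, DESeq2 1.24.0, cutadapt 1.18 and bcl2fastq 2.17, with GRCm38 as the build. Of 55298 identifiers, 54550 (98.6%) matched a symbol and position in GENCODE release M21. Columns were tied to samples by title, and replicates were numbered in accession order, so the numbers pair nothing. The samples are pools or single mice, so p-values measure the spread between such samples.

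EAE was compared with OVA with limma 3.58.1 in R 4.3.3 (empirical Bayes with an intensity trend, two-sided, Benjamini-Hochberg adjustment over the 18161 genes with a mean rlog value of at least 3, threshold 0.05), checked on simulated data. The simulated samples had normally distributed noise and none stood apart, so that check does not cover a sample such as OVA replicate 3. No count test was possible. OVA replicate 3 against the other OVA samples is 1 sample against 2 and has no test. A summed level is the log2 of the sum of the values on the linear scale. The genes and lists were chosen with earlier results of these data known. All 10 members are named, and of each list the genes with the largest differences, the highest means or a call, by a written rule. Csf3r, Stfa2l1, Asprv1, Mrgpra2b, Kit and Meis1 are named outside that rule, to show list genes with a small or negative difference in OVA replicate 3. Ahsp, Ermap, Cr2, Aqp4 and Slc4a4 were not analysed here. Promoter sequences are from RefSeq (GRCm38.p6).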

Additional observations from a re-analysis of the deposited data

How the results depend on the processing

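Of all tested genes limma called 312 higher and 121 lower in EAE, and these counts depended on single samples: they ranged from 24 to 850 and from 1 to 346 with 1 sample left out, and were 2858 and 2233 with array quality weights, whose estimation stopped before it converged. Other filters, no trend and centring each sample on its median kept both within 1.5 times. The count of neutrophil list genes higher in EAE, 11 with all samples, ranged from 1 to 30 with 1 sample left out, an alternative chosen after seeing the data, and 0 were lower throughout. OVA replicate 3 turned the sign of several differences: EAE minus OVA over the primary granule members ranged from -1.48 to 0.22 with 1 sample left out, and without OVA replicate 3 it was 0.22 for Mpo, 0.18 for Elane, 0.37 for Prtn3, 0.0897 for Ctsg, 0.29 for Mmp8 and 0.0509 for S100a8, all below 0 with it. Without it the mean difference was -0.60 for the secondary and -0.05 for the cytosolic members, against -1.87 and -1.13 with all samples. The excess in OVA replicate 3 was 2.71 as a median over the primary granule members, against 3.33 as a mean, since Mpo stands apart. It was 4.23 over the secondary granule members without Mmp8, against 3.82 with it. Both excesses kept their sign in every setting run. No paired analysis was possible because the labels give no replicate numbers that groups share. Depth is unknown, so the counting error of low levels such as that of Ctsg cannot be given.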
